A study of Mus musculus with 32 samples.

Results

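Muscle of old mice 35 days after an injury was compared with muscle of old mice that had not been injured, all of them given vehicle. The comparison rests on 8 of the 32 libraries of the series, 4 from each group, chosen by the labels alone, and on all 17121 genes of 54532 in the count table that had enough counts to test. The study measured RNA in tibialis anterior, a fast muscle of the shin, of young and old C57BL/6J mice, and asked, by its title, how a block of the binding between p53 and MDM2 affects senescent cells and the response of aged muscle. The injured group held old C57BL/6J mice given vehicle, 35 days after an injury that the labels call BaCl, read here as barium chloride. The uninjured group held old C57BL/6J mice given vehicle and no injury, and its library names carry the word PBS, with no injection described. Levels in 4 further groups of 4 libraries are given where they bear on a gene. These were old vehicle muscle 7 days after BaCl, old muscle 35 days after BaCl given the senolytic compound BI01, young vehicle muscle 35 days after BaCl, and young vehicle muscle without injury. No ages beyond young and old are stated. Whether the libraries of a group are from different animals is not stated either, so p-values refer to spread among libraries, which may be technical. In the main fit that spread was estimated within groups over all 32 libraries. These include young vehicle muscle and old BI01 muscle 7 days after BaCl, whose levels are not given here.

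Barium chloride makes muscle fibres contract without relief and die, while the basement membrane, nerve and vessels around them are partly spared. Satellite cells, the stem cells of muscle, then divide and fuse into new fibres inside the old basement membrane sheaths. Fibro-adipogenic progenitors, the fibroblast-like cells between fibres, lay down collagen during this repair, macrophages clear the debris, and in aged muscle the return to the uninjured state is known to be slower. In bulk RNA, fewer cells of a type and less RNA per cell cannot be told apart.

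Total counts were 16077532 to 19820190 in the day 35 libraries and 15404429 to 30439358 in the uninjured libraries. The libraries are called by their table numbers, 6 to 9 in each group, and lists of 4 values below run in that order. Levels are given in CPM, counts per 1e6 counts of the library after TMM scaling. The first principal component of the 8 libraries held 32.7% of the variance and had all 4 day 35 libraries on one side and all 4 uninjured libraries on the other. The second component held 14.9% and had uninjured libraries 7 and 9 at its opposite ends. Uninjured library 7 also had the highest uninjured level of Myh3, Tnnt2, Myog and Cd68. No 2 libraries of a group agreed within sampling noise. Myh4, the fast myosin of this muscle, stood at 63550, 72170, 76120 and 93030 CPM in the day 35 libraries and at 89320, 96380, 89940 and 87650 CPM in the uninjured libraries. Per kilobase of gene, Myh4 averaged 12670 CPM in day 35 muscle and 15100 CPM in uninjured muscle, while Myh7, the slow myosin, had a count in 1 library of each group.

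Of 17121 genes, 543 rose (3.17%) and 423 fell (2.47%) at day 35 at an adjusted p under 0.05 in edgeR's quasi-likelihood test, together 5.64% of those tested. Of these calls, 492 of the 543 rises and 411 of the 423 falls had no overlap between the 4 and 4 libraries. The calls were made on the same libraries, so this describes them and adds no support. Over all genes tested, 9.39% had every day 35 library above every uninjured one and 9.98% had every one below. Rises of at least 1 on the log2 scale numbered 353 and falls of that size 209. The 14 largest rises by the naming rule held 3 collagen genes and a collagen-cleaving protease, and none of the 14 largest falls belonged to any of the 38 gene lists examined. With the spread estimated from these 8 libraries alone, 2550 genes (14.9%) passed, 1177 higher and 1373 lower, and without the day 7 groups in the model 1399 genes (8.17%) passed, so the count depends on which libraries set the spread.

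**Figure D1:**
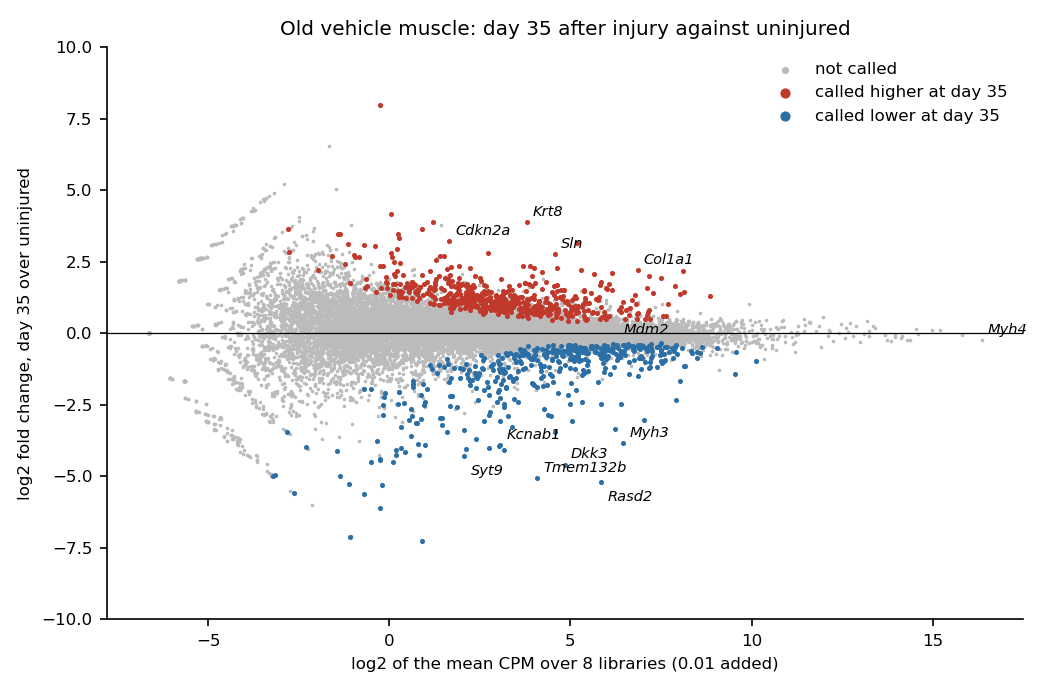
Log2 fold change of old vehicle muscle at day 35 over uninjured (vertical axis) against the log2 of the mean CPM over the 8 libraries (horizontal axis), 1 point per gene tested. Red points are the 543 genes called higher, blue points the 423 called lower, and Myh4 at the far right lies near 0 while Rasd2, Tmem132b and Dkk3 lie below -4.

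Of 26 genes of fibrillar collagen and its surrounding matrix, 13 rose at day 35 and 0 fell. Their median log2 fold change was 1.25, against 0.02 over all genes tested. Counts in this and the later lists stand against the 5.64% called over all genes. The summed level of the list was 2034 to 2451 CPM in day 35 libraries and 418 to 1166 CPM in uninjured libraries. Col3a1, a fibrillar collagen of soft and healing tissue, had 532, 431, 457 and 386 CPM in the day 35 libraries, against 88.3, 180, 94.8 and 39.1 CPM in the uninjured libraries. Every day 35 library was above every uninjured one, and uninjured library 9 was the lowest of the 8. Its log2 fold change was 2.17 (SE 0.42, adjusted p = 0.00234).

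Col1a1, one chain of type I collagen, stood at 212, 197, 169 and 182 CPM at day 35 and at 39.7, 71.7, 39.2 and 14.7 CPM without injury. Its partner chain Col1a2 had 248, 259, 208 and 202 CPM at day 35 and 58.1, 99.1, 50.3 and 22.2 CPM without injury. In both genes the groups did not overlap, the day 35 libraries lay close together, and the uninjured libraries were spread widely, with library 7 the highest and library 9 the lowest. Col1a1 rose by 2.20 (SE 0.44, adjusted p = 0.00327) and Col1a2 by 2.00 (SE 0.40, adjusted p = 0.00292) on the log2 scale. Sparc, a secreted collagen-binding protein, averaged 356 ± 19.4 CPM at day 35 and 114 ± 36.7 CPM without injury (SD, n = 4 each), a log2 fold change of 1.64 (adjusted p = 0.000301). Col6a1, of the beaded type VI collagen that links fibres to their surroundings, averaged 89.3 ± 5.13 CPM at day 35 and 25.7 ± 8.87 CPM without injury, and rose by 1.80 (adjusted p = 0.000874).

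The other called members were Col5a1 (1.5), Col5a2 (1.30), Col6a2 (1.69), Col6a3 (1.41), the small proteoglycans Dcn (1.03) and Lum (1.34), the collagen chaperone Serpinh1 (1.20) and the cross-linking enzyme Loxl2 (1.88), all log2 fold changes. Thus both chains of type I, all 3 tested chains of type VI and both of type V passed. Members that did not pass included Postn, which had a log2 fold change of 0.24 (adjusted p = 0.88), Tnc 0.85 (adjusted p = 0.746) and Thbs1 0.59 (adjusted p = 0.743). Fn1, fibronectin, averaged 87.6 CPM at day 35 and 39.0 CPM without injury (adjusted p = 0.194). The uninjured spread bears on the count, since 8 members passed without uninjured library 8 and 7 without uninjured library 9.

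Of 13 basement membrane genes tested, 8 rose and 0 fell, with a median log2 fold change of 1.09. The sum of the list was 1426 to 1759 CPM at day 35 and 713 to 966 CPM without injury. Col4a1 and Col4a2 encode the paired chains of type IV collagen, the sheet-forming collagen of every basement membrane. Col4a1 had 252, 231, 347 and 311 CPM in the day 35 libraries and 88.3, 77.2, 75.4 and 60.8 CPM in the uninjured libraries. Col4a2 had 188, 169, 236 and 229 CPM in the day 35 libraries and 78.0, 67.1, 69.9 and 60.6 CPM in the uninjured libraries. Both had no overlap, and both were highest in day 35 libraries 8 and 9. Their log2 fold changes were 1.92 (SE 0.26, adjusted p = 3.04e-05) and 1.58 (SE 0.22, adjusted p = 4.03e-05).

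These 2 genes lie head to head and are shown because they share 1 stretch of promoter. In the RefSeq table of build GRCm38.p6 the start of Col4a1, on the minus strand, and that of Col4a2, on the plus strand, are 21 bases apart, and their windows of 250 bases before to 50 after the start overlap by 78 bases. The windows are chr8:11312777-11313076 for Col4a1 and chr8:11312555-11312854 for Col4a2, each printed on the strand of its gene, with CCAAT or its reverse complement ATTGG in capitals.
Col4a1: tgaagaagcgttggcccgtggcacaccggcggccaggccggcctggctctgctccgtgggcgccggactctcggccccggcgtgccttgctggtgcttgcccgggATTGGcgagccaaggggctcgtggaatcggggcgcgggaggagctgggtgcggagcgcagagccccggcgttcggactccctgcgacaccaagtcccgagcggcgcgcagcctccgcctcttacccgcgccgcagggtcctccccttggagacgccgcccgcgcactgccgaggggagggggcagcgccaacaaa
Col4a2: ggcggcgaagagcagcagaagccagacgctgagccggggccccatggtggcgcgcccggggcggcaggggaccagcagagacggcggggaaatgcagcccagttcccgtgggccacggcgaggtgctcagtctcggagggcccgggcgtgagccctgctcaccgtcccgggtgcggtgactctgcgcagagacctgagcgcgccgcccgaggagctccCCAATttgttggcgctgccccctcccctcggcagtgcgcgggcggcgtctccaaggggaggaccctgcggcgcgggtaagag
Each window holds 1 such match, read on both strands. The motif was in 37.4% of all 32851 windows, in 4 of 11 windows matched to the basement membrane list and in 4 of 18 matched to the matrix list. The match is a description of the letters and says nothing of a bound factor. The counting method's use of strand is not given in the sources used here, so reads where these 2 genes overlap could be given to either.

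Col15a1, a collagen at the outer face of the basement membrane of muscle and capillaries, had 57.1, 49.0, 74.1 and 76.5 CPM at day 35, against 19.2, 12.6, 13.0 and 11.03 CPM without injury. This was the largest rise of the list, at 2.20 (SE 0.32, adjusted p = 9.89e-05), with no overlap. Lamb1, the laminin beta chain of growing and of vascular basement membranes, averaged 37.6 ± 4.67 CPM at day 35 and 11.7 ± 1.73 CPM without injury, and rose by 1.68 (adjusted p = 2.49e-05). The linkers Nid1 (1.57) and Nid2 (1.52) and the laminin chains Lama4 (1.09) and Lamc1 (0.70) rose too. Lama2, the alpha chain of the adult fibre, was at 34.0 CPM at day 35 and 27.4 CPM without injury, a log2 fold change of 0.32 (adjusted p = 0.543). Hspg2, perlecan, had 0.43 (adjusted p = 0.355) and Agrn, agrin, 0.27 (adjusted p = 0.336).

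Among 14 matrix proteases and their inhibitors, 4 rose and 0 fell, with a median of 0.63. Mmp2, a gelatinase that cleaves type IV collagen, had 85.1, 85.3, 76.1 and 77.2 CPM at day 35, against 23.5, 24.5, 18.4 and 11.7 CPM without injury. Its day 35 libraries differed by little, and its lowest one was well above the highest uninjured one, with a log2 fold change of 2.05 (SE 0.28, adjusted p = 2.64e-05). Mmp14, the membrane protease that activates Mmp2, averaged 37.9 ± 5.36 CPM at day 35 and 16.5 ± 6.86 CPM without injury, and rose by 1.20 (adjusted p = 0.0179). Its call was lost without day 35 library 7 (adjusted p = 0.0529), without uninjured library 8 (0.0568) or 9 (0.0827), and with no filter on low counts (0.0585). Adamts5, a protease of proteoglycans, rose by 1.66 (adjusted p = 0.00628), and Adamts2, which trims procollagen, by 1.22 (adjusted p = 0.00106). The inhibitors did not pass, with log2 fold changes of 0.54 for Timp1 (adjusted p = 0.764), -0.10 for Timp2 (0.889) and -0.34 for Timp3 (0.42).

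Of 14 marker genes of fibro-adipogenic progenitors, 5 rose and 0 fell, with a median of 0.93, and their sum was 795 to 1231 CPM at day 35 and 281 to 643 CPM without injury. Pdgfra, the receptor by which these cells are usually recognised, had 21.9, 20.3, 19.8 and 16.1 CPM at day 35, against 10.6, 10.4, 8.08 and 6.06 CPM without injury. All day 35 libraries were above all uninjured ones, and it rose by 1.15 (SE 0.23, adjusted p = 0.00231). Cd34 rose by 1.48 (adjusted p = 0.00104), Dpt, dermatopontin, by 1.51 (adjusted p = 0.00267), Gsn, gelsolin, by 1.30 (adjusted p = 0.00317) and Fap by 0.90 (adjusted p = 0.0283). Pi16 and Clec3b averaged 37.8 and 42.2 CPM at day 35 and 13.4 and 14.5 CPM without injury, but did not pass (adjusted p = 0.338 and 0.0962). Ly6a (0.23, adjusted p = 0.84) and Dpp4 (0.25, adjusted p = 0.904), 2 surface markers, did not pass either. The part of these cells in the matrix result was not tested. Of the tenocyte genes, another source of collagen, 0 of 10 rose and Scx, a tendon transcription factor, fell by 1.17 (adjusted p = 0.0103). Their median was -0.10, and 4 of the 10 had positive log2 fold changes. Their sum was higher at day 35, at 202 to 256 CPM, against 116 to 178 CPM without injury. The part of tenocytes in the matrix result was not tested either.

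**Figure D2:**
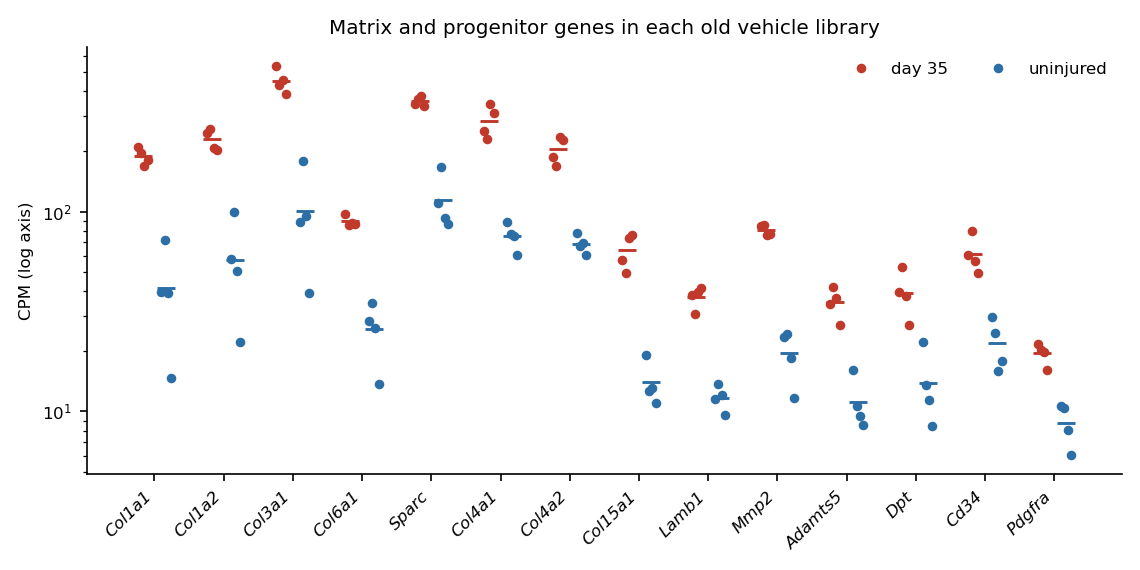
CPM on a log axis of 14 matrix, basement membrane, protease and progenitor genes in each old vehicle library, day 35 (red, left) and uninjured (blue, right), with a bar at each mean of 4 libraries. In each of the 14 genes the 4 day 35 points lie above the 4 uninjured points.

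Apln and Aplnr were among the 14 largest rises. Apln encodes apelin, a peptide of sprouting endothelium, and Aplnr its receptor. Apln had 9.46, 6.26, 19.98 and 10.1 CPM at day 35, against 1.75, 1.55, 1.28 and 1.99 CPM without injury. Aplnr had 26.5, 28.5, 24.8 and 25.3 CPM at day 35, against 7.55, 5.14, 5.12 and 4.16 CPM without injury. Neither overlapped, and Aplnr varied far less among libraries than Apln. Apln rose by 2.78 (SE 0.58, adjusted p = 0.00409) and Aplnr by 2.27 (SE 0.33, adjusted p = 0.000122). In limma voom the call of Apln was lost (adjusted p = 0.134).

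Of 14 general endothelial genes, 2 rose and 1 fell (21.4% called, against 5.64% over all genes), with a median of 0.47. Only Vwf, the fall, was called without day 35 library 8 or 9 or without uninjured library 7, 8 or 9. The junction genes Cdh5 and Pecam1 averaged 105 and 80.5 CPM at day 35 and 63.1 and 52.98 CPM without injury. Their log2 fold changes were 0.73 (adjusted p = 0.0265) and 0.60 (adjusted p = 0.0404), and each call was lost in 5 or more of 18 alternatives. Vwf, von Willebrand factor of the larger vessels, was lower. It had 15.8, 13.5, 15.3 and 23.7 CPM at day 35, against 38.8, 31.0, 30.6 and 32.8 CPM without injury, and fell by 0.96 (SE 0.21, adjusted p = 0.00559) with no overlap. Pericyte genes rose in 3 of 12 cases and fell in 0 (25% called). These were Pdgfrb, the receptor that holds pericytes to capillaries, by 1.21 (SE 0.20, adjusted p = 0.000345), Cspg4 by 1.09 (adjusted p = 0.00562) and Notch3 by 0.84 (adjusted p = 0.0195). The smooth muscle genes of the same list did not pass, with Acta2 at -0.43 (adjusted p = 0.653) and Myh11 at 0.26 (adjusted p = 0.627).

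Notch signalling, a cell contact pathway of vessels and satellite cells, had 3 of 13 members higher and 0 lower, with a median of 0.36. None was called without uninjured library 8, and 1 without day 35 library 9 or uninjured library 6 or 9. With the spread of these 8 libraries alone 6 were called, where 14.9% of all genes passed. Beside Notch3, the members called higher were Notch4 (0.87, adjusted p = 0.0118), an endothelial receptor, and the target Heyl (0.97, adjusted p = 0.0303). Heyl had 12.1, 13.6, 13.3 and 14.1 CPM at day 35, against 6.33, 10.95, 5.92 and 3.71 CPM without injury. Uninjured library 7 came nearest to the day 35 libraries, and the call was lost in 9 of 18 alternatives, against 4 for Notch3 and 1 for Notch4. Ligands and the other receptors did not pass, among them Notch1 (0.17, adjusted p = 0.81) and Dll4 (0.58, adjusted p = 0.509). Outside this list, Mib1, a ligase that activates Notch ligands, was called lower. Its values, seen before it was chosen, are given under the other observations.

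TGF-beta and related factors drive collagen synthesis and hold back muscle growth, and their genes changed in both directions. Of 19 tested, 4 rose and 3 fell, with a median of 0.29. Called members numbered 2 without uninjured library 9, 3 without uninjured library 8, and 4 without day 35 library 8 or 9 or uninjured library 7. Fst, follistatin, which binds activins and myostatin, had 5.97, 6.39, 7.53 and 4.29 CPM at day 35, against 1.45, 2.15, 0.800 and 1.85 CPM without injury, and rose by 1.91 (SE 0.32, adjusted p = 0.000313). Fstl1, a secreted glycoprotein related to follistatin, rose by 1.47 (adjusted p = 0.0183), and Ltbp4, which stores latent TGF-beta in the matrix, by 0.80 (adjusted p = 0.0186). Fstl1 lost its call in 4 of 18 alternatives and Ltbp4 in 3.

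Among the ligands, Tgfb1 rose by 1.04 (adjusted p = 0.0471), with overlap between the groups, and Tgfb3 fell by 0.65 (adjusted p = 0.0461). Gdf11, a close relative of myostatin, had 9.27, 6.14, 4.99 and 7.29 CPM at day 35, against 33.3, 21.4, 28.8 and 13.2 CPM without injury. The highest day 35 library was below the lowest uninjured one, and Gdf11 fell by 1.80 (SE 0.34, adjusted p = 0.00129). Mstn, myostatin itself, averaged 23.8 CPM at day 35 and 63.3 CPM without injury (log2 fold change -1.41, adjusted p = 0.0861). The receptor gene Tgfbr1 fell by 0.68 (adjusted p = 0.0361). Ctgf, a target often used as a readout of the pathway, was at 6.93 CPM at day 35 and 4.45 CPM without injury (adjusted p = 0.509).

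In IGF signalling, which promotes fibre growth, 4 of 14 members rose and 0 fell, with a median of 0.01. The list had 1 called member without uninjured library 8, and 2 without day 35 library 7 or 9 or uninjured library 9. Igf1, the ligand, had 15.9, 13.9, 16.4 and 16.0 CPM at day 35, against 6.64, 5.53, 8.96 and 3.66 CPM without injury. No libraries overlapped, and it rose by 1.35 (SE 0.31, adjusted p = 0.00769). The other called members were binding proteins: Igfbp7 (1.15, adjusted p = 0.0137), Igfbp3 (1.01, adjusted p = 0.0379) and Igfbp4 (0.93, adjusted p = 0.0404). The calls of Igfbp3 and Igfbp4 were lost in 10 and 7 of 18 alternatives, and that of Igfbp7 in 2. Igfbp5, the most abundant binding protein, averaged 1027 CPM at day 35 and 1360 CPM without injury (adjusted p = 0.671), and the receptor Igf1r had a log2 fold change of -0.11 (adjusted p = 0.853).

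The senescence list, which the series' subject led to, had 5 of 21 members higher and 0 lower, with a median of 0.45. Called members numbered 1 without uninjured library 8, 2 without day 35 library 7 or uninjured library 9, and 3 without day 35 library 8 or 9 or uninjured library 7. Besides the binding proteins above and Tgfb1, the called member was Cdkn2a, whose transcripts encode the cell cycle inhibitor p16 and, in another reading frame, ARF, an inhibitor of MDM2. Cdkn2a had 9.15, 2.70, 4.92 and 5.91 CPM at day 35, against 0.305, 0.995, 0.400 and 0.588 CPM without injury. Every day 35 library was above every uninjured one, and library 6 was the highest and library 7 the lowest at day 35. It rose by 3.22 (SE 0.51, 95% interval 2.18 to 4.27, adjusted p = 0.000199), and none of 18 alternatives lost the call. The gene count does not separate the 2 transcripts, whose starts lie apart, and both start windows are shown for that reason. The RefSeq windows of GRCm38.p6 are chr4:89294570-89294869, the upstream one, and chr4:89282143-89282442, the downstream one, printed on the minus strand of the gene with CCAAT or ATTGG in capitals.
Cdkn2a upstream: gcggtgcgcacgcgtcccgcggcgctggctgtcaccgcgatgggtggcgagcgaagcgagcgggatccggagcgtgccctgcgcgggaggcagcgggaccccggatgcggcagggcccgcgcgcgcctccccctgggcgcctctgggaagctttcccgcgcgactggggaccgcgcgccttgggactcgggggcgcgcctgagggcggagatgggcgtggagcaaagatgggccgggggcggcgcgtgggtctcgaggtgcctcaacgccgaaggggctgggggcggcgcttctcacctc
Cdkn2a downstream: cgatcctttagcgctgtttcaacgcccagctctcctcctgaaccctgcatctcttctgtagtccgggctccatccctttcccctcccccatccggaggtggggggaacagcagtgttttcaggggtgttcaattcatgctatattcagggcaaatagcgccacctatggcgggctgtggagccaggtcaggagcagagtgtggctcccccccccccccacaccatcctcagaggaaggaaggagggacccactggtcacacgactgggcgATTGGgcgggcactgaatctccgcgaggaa
The downstream window holds 1 match and the upstream window none. Cdkn2b, the neighbouring inhibitor p15, was at 3.36 CPM at day 35 and 2.19 CPM without injury (adjusted p = 0.608).

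Of 21 genes of p53, the target named in the series title, and its pathway, 1 rose and 1 fell, which is 9.52% against 5.64% over all genes, with a median of -0.21. None was called without day 35 library 7 or uninjured library 9, and 1 without any single one of the other 6. With the spread of these 8 libraries alone, 4 were called (1 higher, 3 lower), where 14.9% of all genes passed. Positive values were found for 6 of the 21, and for 8883 of all 17121 genes tested. Trp53inp1, a stress protein, rose by 0.63 (adjusted p = 0.0313), and Polk, a DNA polymerase of damage bypass, fell by 0.84 (adjusted p = 0.0336). Trp53 itself averaged 16.3 ± 1.18 CPM at day 35 and 18.4 ± 3.00 CPM without injury (log2 fold change -0.18, 95% interval -0.54 to 0.18, adjusted p = 0.693). Mdm2 had 71.5, 72.8, 70.8 and 73.5 CPM at day 35, against 73.7, 81.9, 88.8 and 101 CPM without injury. All day 35 libraries were just below the lowest uninjured one, but the gene did not pass (-0.26, adjusted p = 0.281). Cdkn1a, which encodes the inhibitor p21, had 35.8, 51.2, 44.7 and 37.98 CPM at day 35, against 25.7, 79.8, 39.4 and 37.7 CPM without injury. The groups overlapped fully (-0.11, 95% interval -0.95 to 0.73, adjusted p = 0.941), and without uninjured library 7 the value was 0.31.

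Krt8 and Krt18, keratins that pair in epithelial intermediate filaments, had the largest spread among the rises. Krt8 had 5.84, 68.5, 19.9 and 9.96 CPM at day 35, against 0.458, 1.59, 0.080 and 4.57 CPM without injury. Krt18, named here after its values were seen, had 15.6, 163, 46.2 and 34.9 CPM at day 35, against 1.37, 3.62, 0.560 and 23.2 CPM without injury. In both genes day 35 library 7 was by far the highest and uninjured library 9 the highest of its group, and in Krt18 that library reached into the day 35 range. Krt8 rose by 3.87 (SE 0.77, adjusted p = 0.0045), by 2.75 without day 35 library 7 and by 5.01 without uninjured library 9. It did not pass with the spread of these 8 libraries alone (adjusted p = 0.0885). Krt18 rose by 3.14 (adjusted p = 0.0315), by 2.13 without day 35 library 7 and by 5.03 without uninjured library 9, and its call was lost in 8 of 18 alternatives.

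Sh3d19, an adaptor protein with SH3 domains, rose by 2.28 (SE 0.34, adjusted p = 0.000124), and its 79.7 CPM in day 35 library 7 was again the highest of the 8 values. The other day 35 libraries had 17.0, 43.4 and 23.6 CPM, against 7.48, 6.49, 4.80 and 14.6 CPM in the uninjured libraries. With the spread of these 8 libraries alone it did not pass (adjusted p = 0.0634). The remaining large rises were more even among libraries. Fgfrl1, an FGF receptor without a kinase domain, had 105, 118, 100.2 and 137 CPM at day 35, against 21.1, 38.9, 24.0 and 23.1 CPM without injury, and rose by 2.10 (SE 0.28, adjusted p = 2.54e-05). Rap1gap2, which switches off the small GTPase Rap1, averaged 30.5 ± 3.79 CPM at day 35 and 6.92 ± 2.64 CPM without injury, and rose by 2.12 (adjusted p = 7.83e-07). Igsf9b, an adhesion protein of the immunoglobulin family, rose by 2.27 (adjusted p = 0.000442), and B3galt2, a galactosyltransferase, by 2.32 (adjusted p = 0.00343), a call that limma voom did not make (0.0796).

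Of 16 fast fibre genes 0 rose and 1 fell (6.25% called, against 5.64% over all genes), with a median of -0.03. Myh4 had a log2 fold change of -0.25 (95% interval -1.11 to 0.60, adjusted p = 0.842). The fall was Myh2, the myosin of type IIa fibres, and it came down to a single library. Uninjured library 6 had 508 CPM and the other 3 had 8.76, 13.2 and 17.5 CPM, against 10.4, 9.76, 26.9 and 5.91 CPM in the day 35 libraries. The log2 fold change was -3.36 (adjusted p = 0.0452) with that library and 0.01 without it. Among 12 slow fibre genes, 1 rose and 0 fell (8.33% called), with a median of -1.45. Members that did not pass had values as far apart as -4.26 for Myl2 (adjusted p = 0.275) and 2.05 for Myl3 (adjusted p = 0.189), and Tnnc1, the slow troponin C, averaged 1.59 CPM at day 35 and 8.67 CPM without injury (adjusted p = 0.167). With 1 library left out the list had 0 to 4 called members. The rise was in Sln, sarcolipin, a small inhibitor of the calcium pump that is also scored with denervation. Sln had 28.0, 64.0, 53.1 and 20.8 CPM at day 35, against 1.98, 10.6, 2.24 and 8.77 CPM without injury. There was no overlap, and it rose by 2.77 (SE 0.67, adjusted p = 0.0171). Without day 35 library 7 (adjusted p = 0.0547), uninjured library 6 (0.0595) or uninjured library 8 (0.0681) it did not pass.

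Genes of newly made fibres were not uniformly higher. Of 18, 1 rose and 2 fell (16.7% called, against 5.64% over all genes), with a median of -0.14. None was called without day 35 library 9 or uninjured library 8, and 1 without day 35 library 7 or 8 or uninjured library 7. Actc1, the cardiac actin that young fibres use, had 340, 231, 449 and 476 CPM at day 35, against 128, 295, 80.4 and 73.6 CPM without injury. Uninjured library 7 lay inside the day 35 range, and the log2 fold change was 1.38 (adjusted p = 0.0315), or 2.00 without that library. Its call was lost in 11 of 18 alternatives. Myh3, the embryonic myosin, had 19.3, 1.11, 21.9 and 3.48 CPM at day 35, against 66.3, 422, 165 and 1.04 CPM without injury. The groups overlapped, since uninjured library 9 had the lowest value of all 8. The log2 fold change was -3.84 (adjusted p = 0.0288), or -2.75 without uninjured library 7 (adjusted p = 0.126), and 10 of 18 alternatives lost the call. Tnnt2, the cardiac troponin T of immature fibres, had 15.1, 2.09, 1.97 and 1.05 CPM at day 35, against 14.1, 108, 23.1 and 2.40 CPM without injury. It also overlapped, with -2.86 (adjusted p = 0.0434), -1.34 without uninjured library 7 (adjusted p = 0.408) and -4.42 without day 35 library 6. Myh8, the perinatal myosin, did not pass (-1.61, adjusted p = 0.108), with -0.53 without uninjured library 7 and a call without uninjured library 9 (adjusted p = 0.0203).

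Satellite cell and myogenic regulator genes had 1 of 18 higher, Heyl, and 0 lower, with a median of 0.15. The share called was 5.56%, about the 5.64% over all genes. Pax7, the transcription factor of satellite cells, had 5.34, 7.12, 6.47 and 7.05 CPM at day 35, against 2.44, 6.21, 3.12 and 2.26 CPM without injury. Only uninjured library 7 reached the day 35 range. The log2 fold change was 0.86 (95% interval 0.20 to 1.52, adjusted p = 0.126), and it passed without that library (adjusted p = 0.015) and with the spread of these 8 libraries alone (adjusted p = 0.0479). Myod1 averaged 40.8 ± 7.23 CPM at day 35 and 45.4 ± 9.98 CPM without injury (adjusted p = 0.777). Myog, of differentiating cells, had 4.62 to 9.27 CPM at day 35 and 2.31 to 22.3 CPM without injury (adjusted p = 0.738), and its log2 fold change of -0.53 became 0.40 without uninjured library 7. Of 25 cell cycle genes 0 rose and 1 fell (4% called, against 5.64% over all genes). This was Aurka, a mitotic kinase, at 3.94 CPM at day 35 and 14.8 CPM without injury (-1.91, adjusted p = 0.00169), while Mki67 (-0.47, adjusted p = 0.847) and Top2a (0.28, adjusted p = 0.919) did not pass.

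In the largest falls, genes with clear uninjured levels were at a few CPM or less at day 35. Rasd2, a Ras-like GTPase best known from the striatum of the brain, had 2.48, 2.52, 3.17 and 4.05 CPM at day 35, against 77.2, 140, 141 and 90.6 CPM without injury. Its lowest uninjured library was far above its highest day 35 one, and it fell by 5.21 (SE 0.64, 95% interval -6.52 to -3.89, adjusted p = 4.59e-05). Tmem132b, a transmembrane protein gene, had 0.699, 0.737, 1.69 and 0.810 CPM at day 35, against 40.1, 31.5, 31.8 and 28.2 CPM without injury, and fell by 5.06 (SE 0.69, adjusted p = 7.49e-05). Dkk3, a secreted protein of the Dickkopf family, had 2.41, 1.72, 2.46 and 2.51 CPM at day 35, against 103, 46.7, 29.8 and 40.8 CPM without injury. Uninjured library 6 was the highest, the 4 day 35 values were almost equal, and Dkk3 fell by 4.6 (SE 0.38, adjusted p = 2.49e-08).

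Other large falls were in Kcnab1, Neto2 and Syt9. Kcnab1, a beta subunit of potassium channels, had 0.889, 1.11, 0.985 and 1.13 CPM at day 35, against 12.5, 18.3, 18.9 and 13.0 CPM without injury, and fell by 3.92 (SE 0.43, adjusted p = 1.08e-06). Neto2, an auxiliary subunit of glutamate receptors, averaged 0.736 ± 0.329 CPM at day 35 and 9.69 ± 1.95 CPM without injury, and fell by 3.70 (adjusted p = 1.11e-06). Syt9, a calcium sensor of vesicle release, averaged 0.399 ± 0.345 CPM at day 35 and 7.997 ± 1.45 CPM without injury, and fell by 4.31 (adjusted p = 0.00768), or by 5.10 without day 35 library 8. In each the groups were far apart. Ces1d, a carboxylesterase that cleaves stored lipid, had 3.05, 5.28, 4.29 and 3.08 CPM at day 35, against 50.4, 40.1, 36.7 and 45.8 CPM without injury, and fell by 3.46 (SE 0.58, adjusted p = 0.00088). Bdh1, a mitochondrial enzyme of ketone bodies, fell by 4.04 (adjusted p = 0.00469), and Cyp4f39, a cytochrome P450, by 3.08 (adjusted p = 0.000142). The rest were Odf3l2 (-4.03), the nuclear receptor gene Esrrb (-3.46), the solute carrier gene Slc15a5 (-3.30), the Rac activator gene Tiam1 (-3.07) and Srcin1 (-3.07), an inhibitor of Src kinase. The naming rule required no overlap of all 14.

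At day 7 after injury, in libraries of the same age and vehicle, these genes were also low, as levels set side by side show. Uninjured, day 7 and day 35 means were 112, 1.23 and 3.05 CPM for Rasd2, and 32.9, 0.169 and 0.983 CPM for Tmem132b. For Dkk3 they were 55.2, 9.80 and 2.28 CPM, so its day 35 level was the lowest of the 3, and for Kcnab1 15.7, 2.48 and 1.03 CPM. Tiam1 was less low at day 7, with 14.8 CPM uninjured, 9.91 CPM at day 7 and 1.75 CPM at day 35. Slc15a5 had no count in any day 7 library and averaged 1.89 CPM at day 35. Matrix genes had a peak at day 7: Col1a1 averaged 41.3, 4705 and 190 CPM uninjured, at day 7 and at day 35, and Col4a1 75.4, 442 and 285 CPM. Cdkn2a had its highest mean at day 35, with 0.572 CPM uninjured, 2.36 CPM at day 7 and 5.67 CPM at day 35, though single day 7 libraries of 0.517 to 4.71 CPM overlapped the day 35 range. Apln averaged 1.64, 30.2 and 11.5 CPM over the same stages. No test was made between these stages here, and day 7 shares the uninjured libraries.

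**Figure D3:**
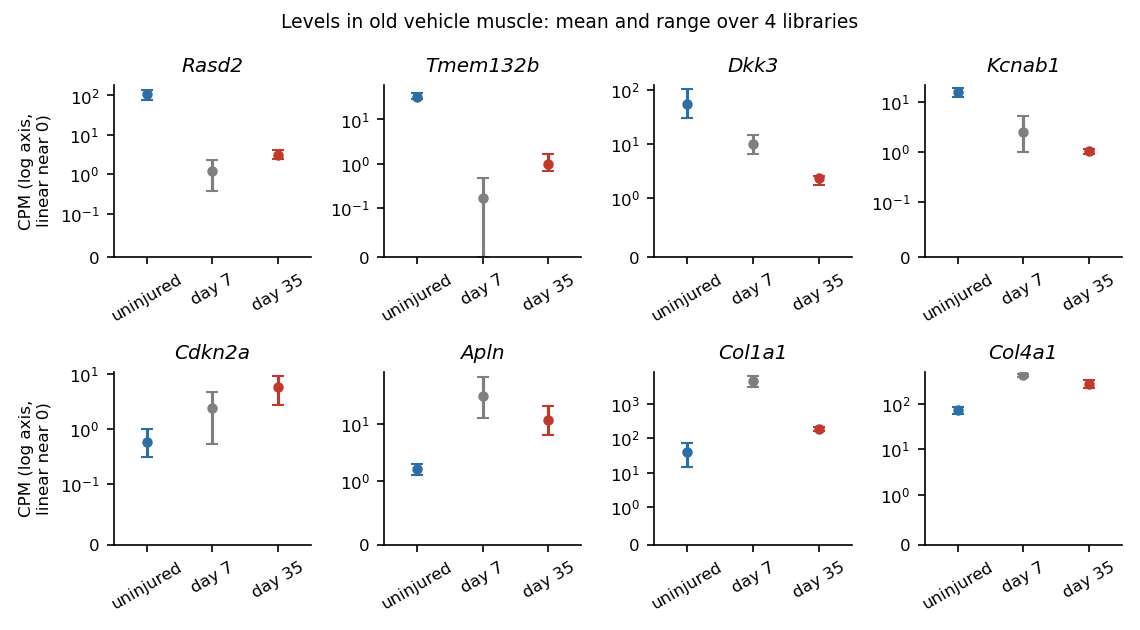
CPM of 8 genes in old vehicle muscle uninjured, at day 7 and at day 35 (a log axis that is linear near 0), points at the mean of 4 libraries and bars over their range. Rasd2, Tmem132b, Dkk3 and Kcnab1 stay low at day 35, Col1a1, Col4a1 and Apln lie between day 7 and uninjured, and the mean of Cdkn2a is highest at day 35.

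Genes of the circadian clock had 0 of 17 higher and 3 lower (17.6% called, against 5.64% over all genes), with a median of -0.26. Hlf, a transcription factor of clock output, had 2.73, 3.32, 2.60 and 2.35 CPM at day 35, against 12.1, 15.3, 17.1 and 16.6 CPM without injury. The groups were far apart, and it fell by 2.47 (SE 0.40, adjusted p = 0.000282) with no alternative that lost the call. Cry2, a clock repressor, fell by 0.92 (adjusted p = 0.0184), and Rora, a nuclear receptor of the clock, by 0.93 (adjusted p = 0.0429), with calls lost in 2 and 10 of 18 alternatives. The list had 1 called member without day 35 library 6 or uninjured library 8, and 5 with the spread of these 8 libraries alone. That last setting called 14.9% of all genes. Members that did not pass included Arntl (-0.62, adjusted p = 0.204), Per1 (-0.06, adjusted p = 0.98) and Nr1d1 (-0.23, adjusted p = 0.811). Hours of collection are not given in the labels.

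Lists of innervation had a few calls each. Shares called were 17.6% for denervation, 12.5% for junction and 16.7% for Schwann cell genes, against 5.64% over all genes. The denervation list had 1 of 17 higher, Sln, and 2 lower, Myh3 and Dach2, with a median of -0.28, and its receptor genes Chrna1 (-0.02, adjusted p = 0.991) and Chrng (-2.54, adjusted p = 0.0664) did not pass. Dach2, a repressor in the denervation response, had 0.064, 0.184, 0.141 and 0.486 CPM at day 35, against 5.11, 1.75, 2.88 and 3.03 CPM without injury. It fell by 3.87 (SE 1.03, adjusted p = 0.023), or -4.55 without day 35 library 9, and 4 of 8 fits that left out a library lost the call. The denervation list had 0 called members without day 35 library 7, 1 without uninjured library 6 or 8, and 6 without uninjured library 9. Neuromuscular junction genes had 2 of 16 higher, Prkar1a (0.58, adjusted p = 0.0074) and Etv5 (0.65, adjusted p = 0.0382), and 0 lower. With the spread of these 8 libraries alone 6 junction genes passed as higher and 1 as lower, where 14.9% of all genes passed. Only 1 junction gene passed without day 35 library 6, 8 or 9 or without uninjured library 7 or 8. Of 12 Schwann cell genes, Scn7a rose by 1.09 (adjusted p = 0.0157) and Mbp, myelin basic protein, fell by 1.30 (adjusted p = 0.00409). Without day 35 library 6 or uninjured library 9, 1 Schwann cell gene passed, as lower. In the dystrophin complex 2 of 16 rose and 0 fell, which is 12.5% called. The rises were the syntrophins Sntb1 (1.74, adjusted p = 0.003) and Sntb2 (0.87, adjusted p = 0.00181). Dmd was at 0.08 (adjusted p = 0.918).

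Immune lists had 0 or 1 called member each, where 5.64% of all genes were called. Of 21 macrophage genes 0 passed in either direction, with a median of 0.33 and a sum of 148 to 290 CPM at day 35 and 74.1 to 404 CPM without injury, the top of that range being uninjured library 7. Cd68 and Adgre1, 2 macrophage markers, had log2 fold changes of 0.06 (95% interval -1.10 to 1.23, adjusted p = 0.976) and 0.56 (95% interval -0.54 to 1.67, adjusted p = 0.68). No member passed among 4 neutrophil genes, 16 antigen presentation genes, 24 interferon genes, 16 complement genes and 20 chemokine and cytokine genes. Of the lymphocyte lists, 1 of 18 T and NK cell genes fell, Cd3e by 2.47 (adjusted p = 0.0227) (0.353 CPM at day 35 and 1.97 CPM without injury). In the other direction, 16 of the 18 had positive log2 fold changes, with a list median of 0.84. Over all genes tested, 8883 of 17121 were positive. The list summed to only 1.90 to 4.78 CPM at day 35 and 2.62 to 4.96 CPM without injury. Of 7 B and plasma cell genes 1 fell, Ighm, the immunoglobulin M constant region, at 25.3 CPM at day 35 and 142 CPM without injury (-2.49, adjusted p = 0.000159). The median of that list was 0.84, and 5 of the 7 had positive log2 fold changes. The defining B cell gene Cd79b was near 0, at 0.3595 CPM at day 35 and 0.323 CPM without injury.

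Of 31 nuclear respiratory chain genes 0 passed in either direction, although 30 had positive log2 fold changes, as did 8883 of all 17121 genes tested. The list had a median of 0.26 and a sum of 18320 to 19820 CPM at day 35 and 13610 to 18180 CPM without injury. Glycolysis and glycogen genes had 0 of 20 higher and 1 lower, which is 5% called, against 5.64% over all genes. The fall was in Fbp2, the fructose bisphosphatase of muscle, by 1.26 (adjusted p = 0.0254). Fatty acid oxidation had 0 of 21 called, atrophy genes 0 of 16, immediate early genes 0 of 18, heat shock and unfolded protein genes 0 of 18 and erythroid genes 0 of 7. Adipocyte genes had the highest median of the 38 lists, 1.65, with 0 of 13 called. Adipoq, the adipokine of fat cells, averaged 3.44 CPM at day 35 and 1.20 CPM without injury (1.65, adjusted p = 0.574), and Plin1, of lipid droplets, 4.21 CPM at day 35 and 0.770 CPM without injury (2.61, adjusted p = 0.333). Among the 16 atrophy genes, Fbxo32, a ubiquitin ligase, averaged 315 CPM at day 35 and 779 CPM without injury without overlap, and did not pass (-1.31, adjusted p = 0.0865). With the spread of these 8 libraries alone, 14.9% of all genes passed. In that setting 6 of 16 atrophy genes passed as lower. Those that passed as higher were 4 of 16 complement, 4 of 31 respiratory chain and 8 of 14 endothelial genes.

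**Figure D4:**
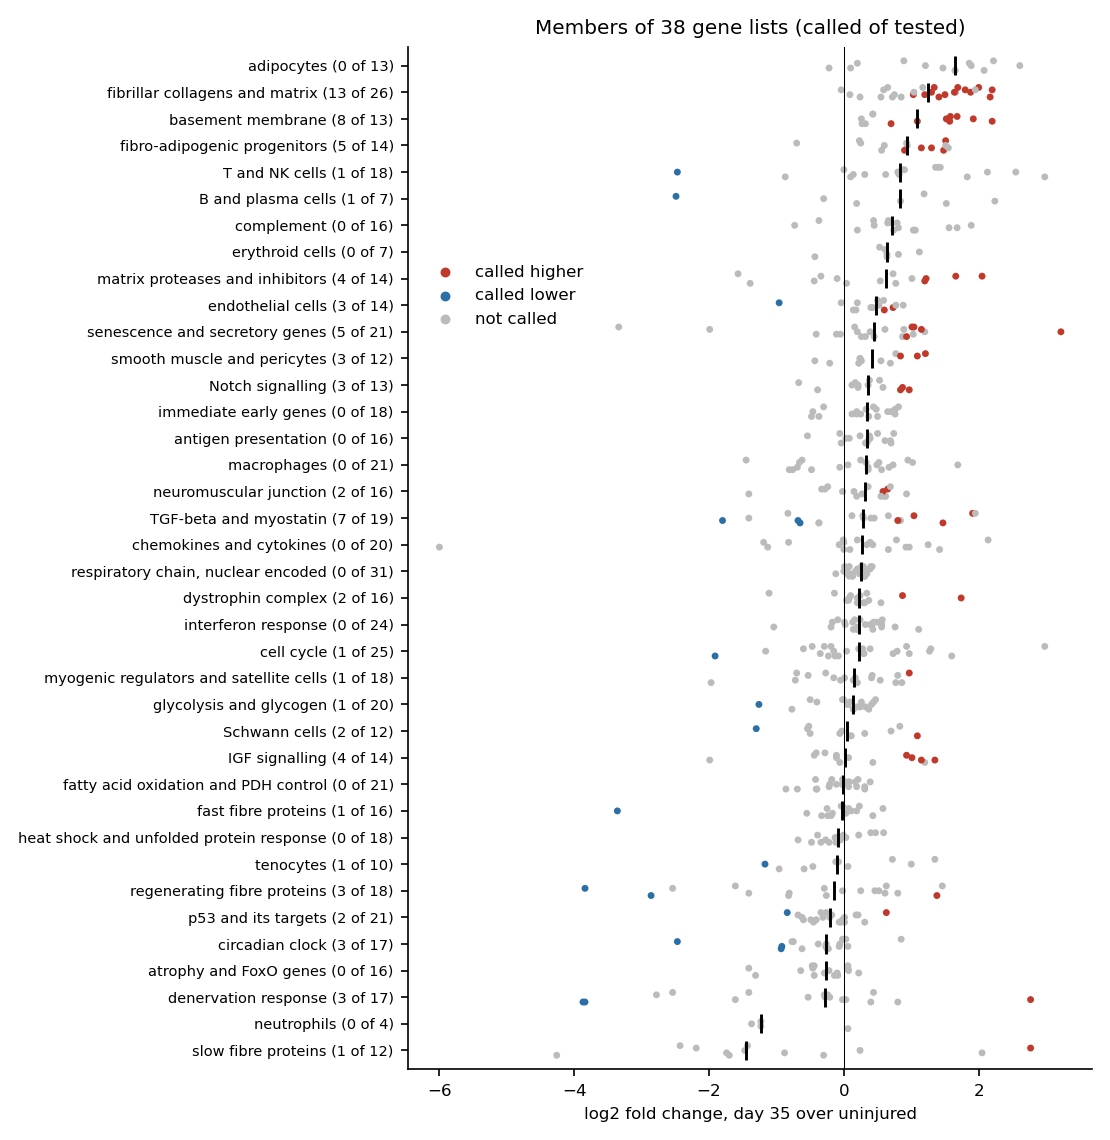
Log2 fold change, day 35 over uninjured, of each tested member of 38 gene lists, 1 point per gene (red called higher, blue called lower, grey not called), with a bar at each list's median and the lists ordered by it. The matrix and basement membrane lists hold 13 and 8 called members, all to the right of 0, while adipocyte genes have the highest median, 1.65, and none called.

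Whether old muscle differed from young muscle in this response was tested as the difference of the 2 day 35 responses. No gene of 17121 passed in edgeR's quasi-likelihood test, and 1690 (9.87%) had an unadjusted p under 0.05. DESeq2 called 31 genes, limma voom 1, and the model without the day 7 groups 2. The count of 0 thus depends on the method, and the DESeq2 adjustment covered 8491 genes, not all 17121. The median gene had a 95% interval of ±0.85 on the log2 scale for this difference, which is wider than the ±0.60 of the day 35 comparison itself. For Col1a1 the old response exceeded the young one by 0.46 (95% interval -0.82 to 1.73), and for Col3a1 by 0.44 (-0.77 to 1.66). Intervals that did not reach 0 were seen for Col15a1, at 1.47 (0.54 to 2.40, adjusted p = 0.347), Col4a1, at 1.03 (0.27 to 1.79, adjusted p = 0.384) and Aplnr, at 1.26 (0.26 to 2.26, adjusted p = 0.424), none of which passed the adjustment. Col15a1 averaged 64.2 CPM in old day 35 muscle and 13.97 CPM in old uninjured muscle, and 18.3 CPM in young day 35 muscle and 11 CPM in young uninjured muscle. Igf1 had 15.6 CPM in old day 35 muscle and 6.20 CPM in old uninjured muscle, and 7.26 CPM in young day 35 muscle and 6.50 CPM in young uninjured muscle, a difference of 1.18 (0.27 to 2.09, adjusted p = 0.411).

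The difference of the responses was negative for Cdkn2a and several of the falls. For Cdkn2a this is a smaller rise in old muscle on the log2 scale, and for Rasd2, Dkk3 and Odf3l2 a larger fall. The intervals of Rasd2 and Dkk3 included 0. Those of Esrrb (-2.19, -3.84 to -0.54), Tmem132b (-2, -3.92 to -0.09), Kcnab1 (-1.54, -2.78 to -0.31) and Tiam1 (-1.33, -2.45 to -0.22) did not. None of these passed the adjustment. Positive differences, with intervals that included 0, were those of Srcin1, Cyp4f39, Slc15a5 and Ces1d. Cdkn2a averaged 5.67 CPM in old day 35 muscle and 0.572 CPM in old uninjured muscle, and 4.89 CPM in young day 35 muscle and 0.112 CPM in young uninjured muscle. The difference of the responses was -2.16 (95% interval -4.21 to -0.11, adjusted p = 0.448). The young uninjured libraries had 0 to 0.193 CPM, so the young log2 fold change of 5.38 rests on a level near 0. Rasd2 was also low in young day 35 muscle, at 5.64 CPM, against 73.7 CPM in young uninjured muscle, and its difference was -1.50 (-3.32 to 0.32, adjusted p = 0.593). For Dkk3 the young levels were 3.43 CPM at day 35 and 44.1 CPM uninjured, with a difference of -0.93 (-2.0 to 0.13, adjusted p = 0.564). Odf3l2 differed more, at 0.770 CPM in old day 35 muscle and 12.7 CPM in old uninjured muscle, and 4.75 CPM in young day 35 muscle and 19.2 CPM in young uninjured muscle (-2.02, -3.40 to -0.65, adjusted p = 0.347). Mib1, given under the other observations, aside, Myh3 had the smallest unadjusted p of the named genes, 0.000827. Its difference was -5.76 (-8.80 to -2.72, adjusted p = 0.308). Its young levels were 7.62 CPM at day 35 and 1.98 CPM uninjured. The young and the old comparison share no libraries.

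**Figure D5:**
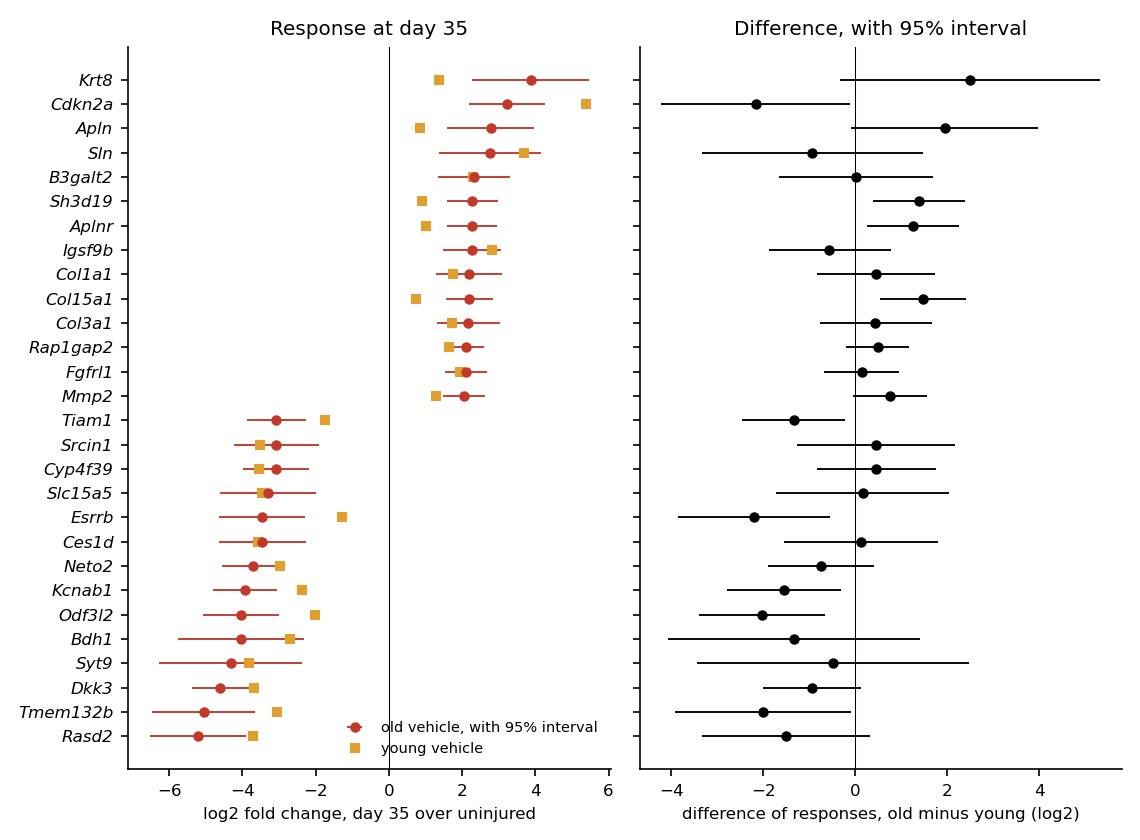
Left, log2 fold change of day 35 over uninjured for the 14 largest rises and 14 largest falls, in old vehicle muscle (red, with the 95% interval) and young vehicle muscle (yellow). Right, the difference of the responses, old minus young, with its 95% interval, which for most genes includes 0 and for none passed adjustment over all genes.

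Old muscle given BI01 was set against old vehicle muscle at day 35. No gene of 17121 passed in edgeR's quasi-likelihood test, with 530 (3.1%) at an unadjusted p under 0.05, while DESeq2 called 12. Cdkn2a averaged 4.62 CPM with BI01 (4.03 to 5.17 CPM over 4 libraries) and 5.67 CPM with vehicle (2.70 to 9.15 CPM), a log2 difference of -0.29 (95% interval -1.22 to 0.63). Col1a1 averaged 228 CPM with BI01, over a range of 65.3 to 389 CPM, and 190 CPM with vehicle, over 169 to 212 CPM (0.26, -0.63 to 1.16). The BI01 libraries were spread more widely than the vehicle libraries in Col3a1, Col4a1 and Col15a1 as well. Rasd2 stood at 4.42 CPM with BI01 and 3.05 CPM with vehicle (0.54, -0.86 to 1.95). Krt8 was at 1.45 CPM with BI01 and 26.1 CPM with vehicle (-4.15, -5.79 to -2.50, adjusted p = 0.251), and Krt18 was at 3.38 CPM with BI01 and 65.0 CPM with vehicle (-4.27, -6.04 to -2.49, adjusted p = 0.389). Day 35 library 7 carries much of both vehicle means. For each gene here the vehicle libraries are those of the injury comparison above, so the 2 sets of values are not independent.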

How the data were processed

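Libraries were of tibialis anterior RNA (per the series' design text), isolated with a Qiagen miRNeasy Mini Kit and sequenced at Novogene, per the labels. The deposited table holds whole-number counts per gene with mm10 coordinates. The submitters' processing notes name HISAT2 and mm10, while the sources used here do not give versions, the counting tool, annotation, strandedness or the handling of reads that match several genes, so counts of paralogs such as the myosins, keratins and actins are uncertain. Table columns were matched to groups by name, and their numbers are not those of the sample titles. All 32 count columns were used and 0 had no match.

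Counts were filtered with filterByExpr, scaled by TMM and fitted with edgeR 4.0.16 (R 4.3.3), robust quasi-likelihood, 1 mean per group over all 32 libraries. Group contrasts were tested and p-values adjusted by Benjamini and Hochberg over all 17121 genes, with 0.05 as the threshold. Adjusted p-values are from edgeR unless another tool is named. Intervals are 95% Wald intervals of the fit, unadjusted, and the p-values come from the quasi-likelihood F test. Alternatives were DESeq2 1.42.0, limma voom 3.58.1, other scalings and filters, fewer libraries in the model, a block by table number, and leaving out each library. Models without the day 7 groups, and of the 8 libraries with their own filter, were added after the data were seen. Without a stated pairing, the block is reported only as an alternative. The fit was tested on simulated data.

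Named were the called genes with the 14 largest changes each way, given 5 CPM or more on average in whichever group was higher, no overlap of the 4 and 4 libraries and a symbol that is not predicted. Added were the 4 called members of smallest p in each list with at least 3 called members, and 18 key genes. Other list members are given from the list's counts, and Krt18 was named after its values were seen. The members and the 38 lists were chosen with earlier results of these data known. RefSeq promoter windows (GRCm38.p6) were matched by symbol.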

Additional observations from a re-analysis of the deposited data

Results flagged for a closer look

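In 10 of 156 sets of 4 values, for 78 named genes in the day 35 and the uninjured group, 1 library stood far from the other 3 by Dixon's criterion. Chance flags about 1 in 20 such groups. In old day 35 muscle, library 7 was low for Dkk3 (1.72 CPM, others 2.41 to 2.51 CPM), Srcin1 (0.430 CPM, others 1.46 to 1.84 CPM) and Igf1 (13.9 CPM, others 15.9 to 16.4 CPM). Library 8 was high for Tmem132b (1.69 CPM, others 0.699 to 0.810 CPM), library 6 was high for Myod1 (51.6 CPM, others 36.7 to 37.98 CPM), and library 9 was low for Adgre1 (2.03 CPM, others 4.13 to 4.61 CPM). In old uninjured muscle, library 6 was high for Myh2 (508 CPM, others 8.76 to 17.5 CPM) and library 9 was low for Odf3l2 (8.86 CPM, others 13.6 to 14.8 CPM). For Myh7, counts were found only in day 35 library 8 (0.141 CPM, others 0) and in uninjured library 6 (0.839 CPM, others 0). Uninjured library 6 was thus the high one for both Myh2 and Myh7.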

How the results depend on the processing

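The 966 calls became 2550 with only these 8 libraries in the model and 2600 with their own filter as well, where the biological coefficient of variation was 0.197, against 0.293 over all 32 libraries. Leaving out 1 library gave 570 to 889 calls (629 without day 35 library 7, 570 without uninjured library 8, 637 without uninjured library 9), and other settings, the block aside, 691 to 1399. The matrix list had 7 to 14 called members with 1 library left out, and the basement membrane list 7 to 8. For the difference of old and young responses the count of 0 became 2 by library size alone, 1 with no filter, 31 in DESeq2, 1 in limma voom, 2 without the day 7 groups, and 0 to 40 with 1 library left out, the 40 without young uninjured library 4. The median of that difference over all genes was -0.218 by library size alone and -0.052 with TMM. For BI01 against vehicle, DESeq2 called 12 genes, and leaving out 1 library gave 0 in every case. With 1 library left out, 6 log2 fold changes ran through 0: Cd68 (-0.24 to 0.90), Cdkn1a (-0.30 to 0.31), Myh1 (-0.42 to 0.12), Myog (-0.86 to 0.40), Myh7 (-4.82 to 2.63) and Myh2 (-3.96 to 0.01). The other named genes kept their sign under all alternatives run. Calls were lost in 140 recomputed gene values, not counting Myh2 without uninjured library 6, which lost its call and changed sign. A replicate block by table number in the 8-library model gave 2605 calls, Pax7 among them (adjusted p = 0.0126). The deviations of same-numbered libraries correlated at 0.01, 0.03, 0.07 and 0.11. For day 35 libraries 8 and 9 the same number was the best match, for 7 it tied, and 6 correlated best with uninjured library 7, so whether the numbers pair the libraries is unknown. Myh7, with few counts, shows the limit of depth.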

Other observations

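Mib1, a ubiquitin ligase that activates Notch ligands and was chosen after its values were seen, had the smallest p of all genes tested. It had 83.5, 78.3, 75.8 and 83.1 CPM at day 35, against 328, 457, 566 and 268 CPM in old uninjured muscle, and the groups were far apart (log2 fold change -2.33, adjusted p = 4.07e-09 in edgeR). The difference of the old and young responses did not pass for it (adjusted p = 0.0609).

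Outside the comparisons above, technical values of the 8 libraries were as follows. Mitochondrial genes took 9.89% to 15.0% of counts at day 35 and 11.6% to 14.9% without injury, and the 10 most abundant genes took 24.5% to 29.2% at day 35 and 27.1% to 28.5% without injury. TMM factors were 0.768 to 0.899 at day 35 and 0.775 to 0.825 without injury. Erythroid genes, which reflect blood in the sample, summed to 136 to 1067 CPM at day 35 and 68.3 to 515 CPM without injury.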
